A study of Mus musculus with 4 samples.

Results

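The 10 genes described here encode the core of interleukin-6 family signalling: the cytokines Il6, Il11 and Lif, the receptor subunits Il6ra, Il11ra1, Il6st, Lifr and Osmr, the transcription factor Stat3 and the feedback inhibitor Socs3. They were taken by gene symbol from a table of 56691 genes, each symbol matched 1 row, and all 10 passed the filter on low counts. The libraries were RNA-seq of wild-type mouse cardiac fibroblasts from P1-P3 hearts, primary cells that carried Mef2c, Gata4 and Tbx5 (MGT), the factors that turn fibroblasts towards induced cardiomyocyte-like cells. In the MGT+shScd1 group (2 libraries) a short hairpin RNA against Scd1, the gene of stearoyl-CoA desaturase, was added, and in the MGT+shNT group (2 libraries) a non-targeting hairpin. Both groups were collected at day 7, so the MGT factors, the cell source and a hairpin are common to all 4 libraries. The comparison asked how transcripts differed when Scd1 was knocked down during reprogramming. Since no label states that replicates were independent cultures or animals, each p-value reflects the spread among these 4 libraries, which may be technical.

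In this pathway a cytokine binds its own receptor subunit and then recruits gp130, the shared signalling subunit encoded by Il6st. Interleukin-6 and interleukin-11 use the non-signalling alpha subunits Il6ra and Il11ra1, whereas leukaemia inhibitory factor pairs gp130 with Lifr and mouse oncostatin M pairs it with Osmr. Janus kinases on the receptor then phosphorylate STAT3, which enters the nucleus and switches on target genes, among them Socs3, whose product binds gp130 and the kinases and shuts the signal down. Cardiac fibroblasts are known to secrete interleukin-6 family cytokines, and gp130 signalling is known for protective and growth-promoting effects on cardiomyocytes.

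Every one of the 5 receptor genes, Stat3 and Socs3 fell in MGT+shScd1 cells, and none of the 3 cytokine genes was called. Socs3 fell to 47.7% of its level in MGT+shNT cells, Il6ra to 51.3%, Osmr to 55.1%, Il6st to 55.7% and Lifr to 57.1%, while Stat3 and Il11ra1 fell less, to 83.1% and 83.9%. In counts, 7 of 10 members were called lower and 0 higher by edgeR's quasi-likelihood test, where "fell" and "rose" mean a Benjamini-Hochberg adjusted p below 0.05 over all 16234 genes tested. Of all genes tested, 16.3% were called lower and 13.1% higher. The median log2 fold change of the 10 genes was -0.54, that of the 5 receptor genes -0.84 and that of all genes tested 9.44e-05. The same 7 genes had MGT+shScd1 values below both MGT+shNT values, a separation in that direction seen for 32.3% of all genes tested (32.0% in the other direction, 64.3% in either).

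The windows around the RefSeq start sites of the members (GRCm38.p6, 250 bases before to 50 after each start) were searched for 3 motifs. There were 13 windows for 10 of 10 members. The motifs were the STAT site TTCNNNGAA, the kappaB site and the AP-1 site TGANTCA, each searched on both strands. A STAT match was found in 1 of 13 windows, that of Socs3, against 8.3% of all 32851 windows in the table. A kappaB match was found in 1 of 13 windows, that of Il6, against 0.411% of all windows. An AP-1 match was found in 4 of 13 windows, those of Il6, Lif, Osmr and an alternative start of Il11, against 7.81%. Printed here, with matches in capitals, are the 250 bases upstream of the start for the member that fell furthest and for the cytokine genes with a match and the higher counts.
Socs3, minus strand, chr11:117969367-117969616: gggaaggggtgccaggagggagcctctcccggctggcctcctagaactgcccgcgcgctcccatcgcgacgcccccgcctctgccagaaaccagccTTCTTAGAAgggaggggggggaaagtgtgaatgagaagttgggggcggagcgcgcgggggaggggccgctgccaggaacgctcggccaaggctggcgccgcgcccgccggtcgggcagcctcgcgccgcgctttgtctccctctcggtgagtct
Il6, plus strand, chr5:30012864-30013113: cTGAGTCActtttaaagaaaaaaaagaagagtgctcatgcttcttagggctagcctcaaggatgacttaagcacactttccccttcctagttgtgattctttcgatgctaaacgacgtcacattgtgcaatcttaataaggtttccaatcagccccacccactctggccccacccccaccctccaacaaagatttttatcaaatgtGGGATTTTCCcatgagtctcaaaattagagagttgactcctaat
Lif, plus strand, chr11:4257318-4257567: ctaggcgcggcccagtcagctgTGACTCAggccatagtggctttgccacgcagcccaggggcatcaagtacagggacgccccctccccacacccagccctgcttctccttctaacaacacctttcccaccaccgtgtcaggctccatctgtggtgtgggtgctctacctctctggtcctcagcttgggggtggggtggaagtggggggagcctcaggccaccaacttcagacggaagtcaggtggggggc
The RefSeq start used for Socs3 lies 180 bases upstream of the start of the GENCODE M21 protein-coding transcript, so this window does not reach that start. A match is a match of letters only, and its absence says only that these letters are not in the window.

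Total counts were 19104319 and 18679918 in the MGT+shScd1 libraries and 20894972 and 15135227 in the MGT+shNT libraries. Scd1 itself had 6.64 and 8.04 CPM in MGT+shScd1 cells, against 84.4 and 63.5 CPM in MGT+shNT cells (log2 fold change -3.34, SE 0.14, adjusted p = 4.31e-09). CPM here are counts scaled by the TMM-adjusted library size. MGT+shNT replicate 2 stood apart in ribosomal RNA, with 3.32% of its counts in Rn18s-rs5, against 0.129% to 0.199% in the other 3 libraries, and in the nuclear RNA Malat1, with 0.541% against 0.157% to 0.173%. Of all genes, 2122 were called higher and 2641 lower, so 44.6% of calls were higher, a share that was 55.4% with upper-quartile factors and 64.4% on log2(FPKM + 1). Without MGT+shScd1 replicate 1 or 2 the calls numbered 2272 and 2559. Fibroblast markers were abundant: the 11 genes summed to 11833 and 12005 CPM in MGT+shScd1 cells and 17379 and 16046 CPM in MGT+shNT cells. Collagen genes, named after their values were seen, made up most of these sums. Col1a1, Col1a2 and Col3a1 had 7408, 4374 and 2340 CPM in MGT+shNT replicate 1. Of the 11 genes 8 were lower, where 16.3% of all genes tested were. Postn, a matrix gene named after its values were seen, was higher (log2 fold change 1.03).

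Per length, the levels of the 10 genes spanned a wide range, given here as the FPKM deposited by the authors (mean ± SD, n = 2 each). In MGT+shScd1 cells Il6st was highest at 29.1 ± 1.38 FPKM, followed by Stat3 (21.9 ± 0.764 FPKM), Lif (18.7 ± 0.955 FPKM), Il6 (9.70 ± 0.587 FPKM), Il11ra1 (9.51 ± 0.318 FPKM), Osmr (8.69 ± 0.198 FPKM) and Socs3 (3.56 ± 0.0990 FPKM). Lifr, Il6ra and Il11 were lowest there, at 1.05, 0.66 and 0.635 FPKM. In MGT+shNT cells Il6st was again highest at 49.0 ± 5.13 FPKM, followed by Stat3 (24.7 ± 1.70 FPKM), Osmr (14.8 ± 0.226 FPKM), Lif (14.3 ± 3.77 FPKM), Il11ra1 (10.6 ± 0.389 FPKM), Il6 (8.29 ± 0.601 FPKM) and Socs3 (6.99 ± 0.255 FPKM), with Lifr, Il6ra and Il11 at 1.73, 1.20 and 0.39 FPKM. Neighbours whose libraries overlapped were Il6 with Il11ra1 and Il6ra with Il11 in MGT+shScd1 cells, and Osmr with Lif in MGT+shNT cells. Among the genes tested, the mean FPKM of Il6st over all 4 libraries stood at the 93.3rd percentile and that of Stat3 at the 87.8th, whereas Lifr (28.2), Il6ra (22.0) and Il11 (13.8) were in the lower part.

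**Figure D1:**
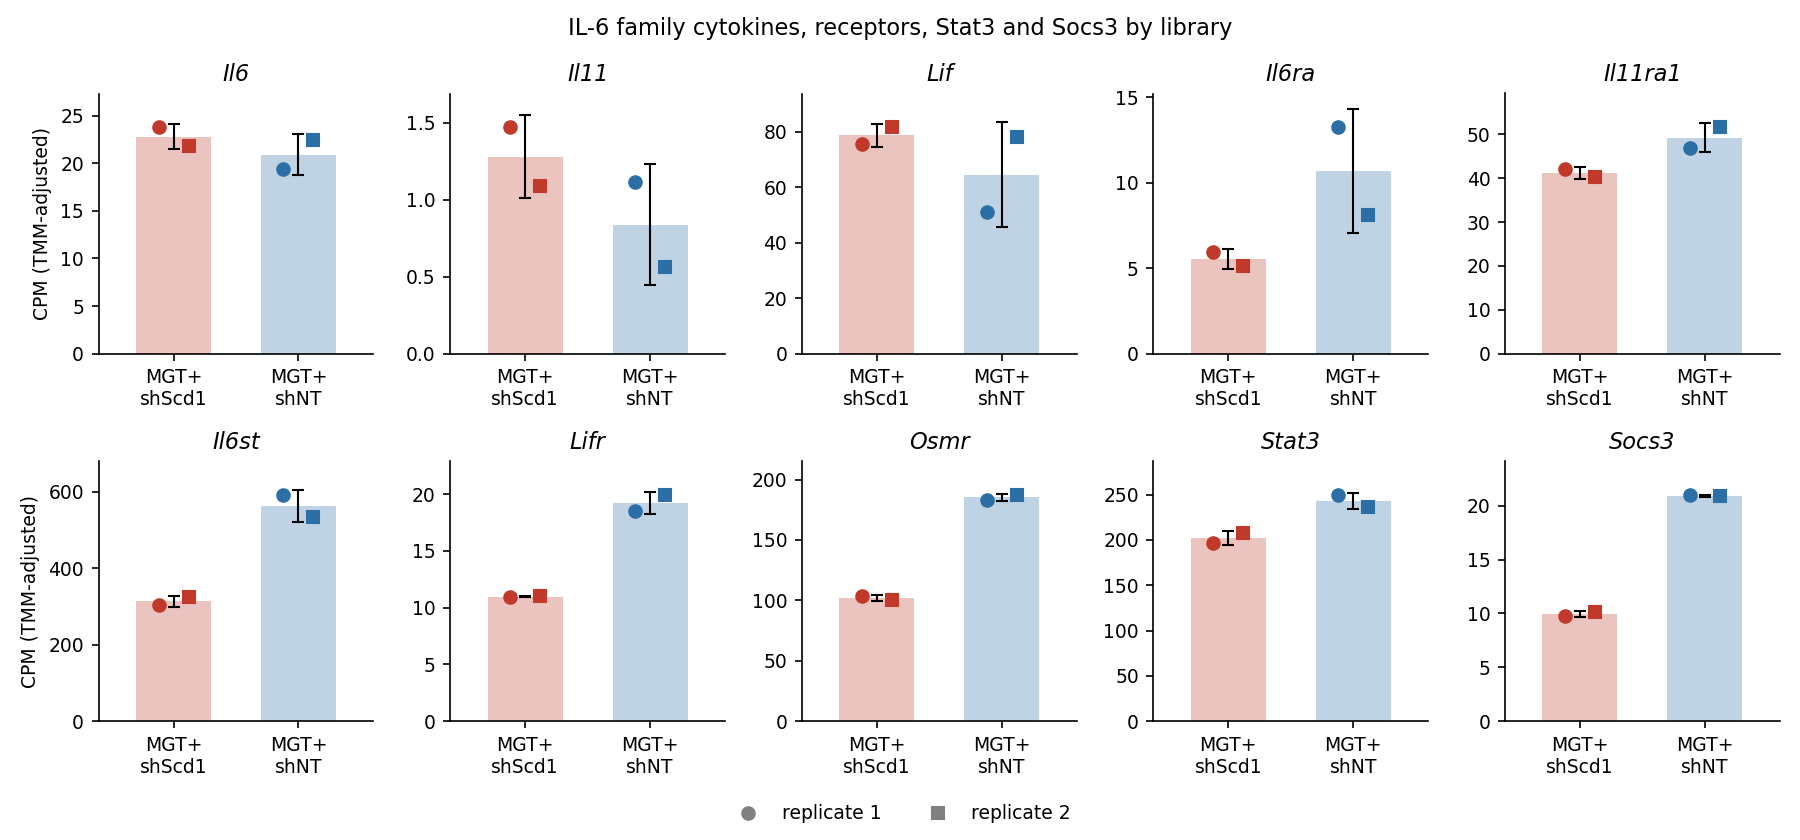
CPM (counts scaled by the TMM-adjusted library size, vertical axis from 0, a scale for each gene) of the 10 genes in MGT+shScd1 and MGT+shNT libraries; bars are means of 2 libraries, whiskers SD, circles replicate 1 and squares replicate 2. In these CPM the groups overlap for Il6, Il11 and Lif and do not overlap for the other 7 genes, where MGT+shScd1 is lower.

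Among the cytokines, Il6 (ENSMUSG00000025746, plus strand of chromosome 5, 30013114 to 30019981 in GRCm38), the founding member of the family, had 23.8 and 21.9 CPM in MGT+shScd1 cells, against 19.3 and 22.4 CPM in MGT+shNT cells. In CPM the groups overlapped, and the log2 fold change of 0.14 (SE 0.11, 95% interval -0.10 to 0.37, adjusted p = 0.394) was not called. It was 0.034 without MGT+shNT replicate 1, 0.24 without MGT+shNT replicate 2 and 0.072 when MGT+shScd1 replicate 1 was left out, again with no call. Lif (ENSMUSG00000034394, plus strand of chromosome 11, 4257557 to 4272514), known for holding mouse stem cells undifferentiated, had 75.8 and 81.6 CPM in MGT+shScd1 cells, against 51.2 and 78.1 CPM in MGT+shNT cells. In CPM, MGT+shNT replicate 2 lay between the MGT+shScd1 libraries and replicate 1 well below them. In the deposited FPKM, scaled without TMM factors, both MGT+shScd1 libraries exceeded both MGT+shNT libraries for Lif (18.01 and 19.36, against 11.62 and 16.95). The same held for Il6 (10.11 and 9.28, against 7.86 and 8.71) and Il11 (0.73 and 0.54, against 0.53 and 0.25). The overlap thus depended on how the libraries were scaled. The log2 fold change of Lif was 0.30 (SE 0.14, 95% interval 0.01 to 0.59, unadjusted p = 0.0458, adjusted p = 0.119 by edgeR). The MGT+shNT library included decided this value. It was 0.62 without replicate 2, where Lif was called higher, and 0.019 without replicate 1, where it was not called. Il11 (ENSMUSG00000004371, minus strand of chromosome 7, 4772373 to 4782859), a cytokine of fibroblasts linked to fibrosis, was near the limit of detection, with 29 and 21 counts in MGT+shScd1 cells and 23 and 8 counts in MGT+shNT cells. Its log2 fold change of 0.56 had a 95% interval from -0.41 to 1.52 (adjusted p = 0.390), so neither a rise nor a fall of moderate size was detectable at this depth. The value was 1.19 without MGT+shNT replicate 1, 0.20 without MGT+shNT replicate 2 and 0.34 when MGT+shScd1 replicate 1 was left out, with no call in any.

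The shared subunit Il6st (ENSMUSG00000021756, plus strand of chromosome 13, 112464070 to 112510086) had 303 and 324 CPM in MGT+shScd1 cells, against 592 and 533 CPM in MGT+shNT cells. Both MGT+shScd1 libraries lay far below both MGT+shNT libraries, and the log2 fold change was -0.84 (SE 0.07, adjusted p = 1.18e-06). Osmr (ENSMUSG00000022146, minus strand of chromosome 15, 6813577 to 6874969), the oncostatin M subunit, had 103 and 100.4 CPM in MGT+shScd1 cells, against 183 and 187 CPM in MGT+shNT cells. The spread within each group was small beside the gap between them (log2 fold change -0.86, SE 0.06, adjusted p = 2.29e-07). Lifr (ENSMUSG00000054263, plus strand of chromosome 15, 7090614 to 7197489), the subunit that binds leukaemia inhibitory factor, had 10.9 and 11.0 CPM in MGT+shScd1 cells, against 18.6 and 19.9 CPM in MGT+shNT cells (log2 fold change -0.81, SE 0.12, adjusted p = 0.000193). Of all genes tested, 3.68% were called lower with a log2 fold change of -0.8 or below, as were Il6st, Osmr, Lifr, Il6ra and Socs3. That cut was not planned and lies just short of the Lifr value, so the share is no test. With upper-quartile factors Il6st (-0.79) and Lifr (-0.75) did not reach it. In bulk RNA, fewer cells of a type and less RNA per cell cannot be told apart.

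The alpha subunit Il6ra (ENSMUSG00000027947, minus strand of chromosome 3, 89864059 to 89913196), known from leukocytes and liver cells, had 5.98 and 5.14 CPM in MGT+shScd1 cells, against 13.2 and 8.12 CPM in MGT+shNT cells. The MGT+shNT libraries differed widely between themselves but both exceeded the MGT+shScd1 libraries (log2 fold change -0.96, SE 0.21, adjusted p = 0.00385). Leaving out MGT+shScd1 replicate 2 ended the call (-0.85, adjusted p = 0.0812), and leaving out MGT+shNT replicate 1 gave -0.54 (adjusted p = 0.0473). On log2(FPKM + 1) and log2(FPKM + 0.1) it was also not called (adjusted p = 0.111 and 0.111). Most macrophage markers fell too, as did 16.3% of all genes tested. Of 15 markers, 10 fell, C1qb alone rose (0.65, adjusted p = 0.0372, named after its values were seen) and 4 were not called; their summed level was 187 to 188 CPM in MGT+shScd1 cells and 669 to 746 CPM in MGT+shNT cells, and none was at 0. Leaving out MGT+shNT replicate 2 (adjusted p = 0.115), MGT+shScd1 replicate 1 (adjusted p = 0.151) or MGT+shScd1 replicate 2 (adjusted p = 0.239) ended the call on C1qb, as did DESeq2 (adjusted p = 0.141). The median log2 fold change of the 15 markers was -1.07. It was -0.58 without MGT+shNT replicate 1, -1.37 without MGT+shNT replicate 2, -1.14 without MGT+shScd1 replicate 1 and -1.53 without MGT+shScd1 replicate 2. Fewer of the markers were called without either MGT+shScd1 library, as of all genes tested. The lysozyme gene Lyz2, which made up most of the sum and is named after its values were seen, had 126 and 118 CPM in MGT+shScd1 cells, against 568 and 552 CPM in MGT+shNT cells. The part of macrophage RNA in the difference of Il6ra, or of any other member, was not tested. Il11ra1 (ENSMUSG00000073889, plus strand of chromosome 4, 41699989 to 41769474), the interleukin-11 alpha subunit, had 42.1 and 40.2 CPM in MGT+shScd1 cells, against 46.8 and 51.6 CPM in MGT+shNT cells. This small fall (log2 fold change -0.25, SE 0.08, adjusted p = 0.0291) was lost in 7 of 13 alternatives, among them DESeq2 (adjusted p = 0.115), upper-quartile factors (adjusted p = 0.0776) and the fits without MGT+shNT replicate 2 (adjusted p = 0.113), MGT+shScd1 replicate 1 (adjusted p = 0.119) or MGT+shScd1 replicate 2 (adjusted p = 0.209). Its annotated span in GENCODE M21 overlaps Galt on the same strand and Dctn3 on the other, and it has a close paralog, Il11ra2 (2 to 4 counts per library), so its counts are uncertain.

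**Figure D2:**
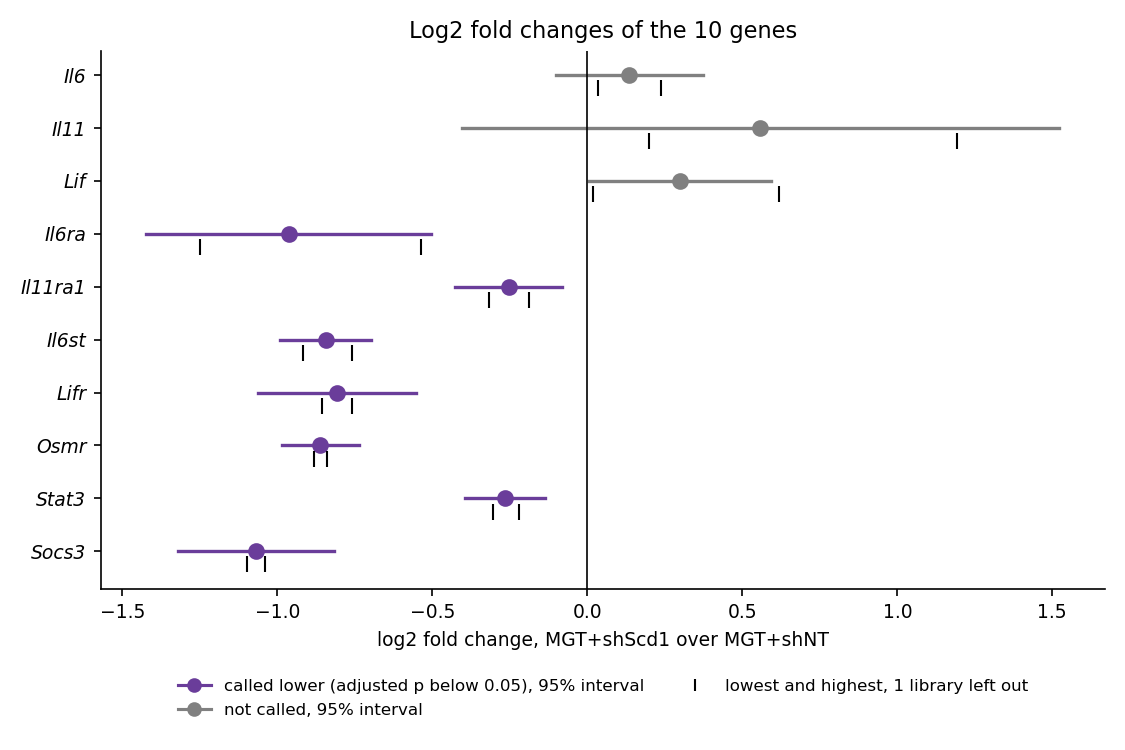
Log2 fold change of MGT+shScd1 over MGT+shNT for each of the 10 genes, with its 95% interval from edgeR's quasi-likelihood fit; black ticks under each line mark the lowest and highest value with 1 library left out in turn. The 5 receptor genes, Stat3 and Socs3 lie left of 0, and the ticks of Lif span 0.019 to 0.62.

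Stat3 (ENSMUSG00000004040, minus strand of chromosome 11, 100885098 to 100939540), the transcription factor that carries the signal to the nucleus, had 197 and 207 CPM in MGT+shScd1 cells, against 249.7 and 237 CPM in MGT+shNT cells. The groups did not overlap, and the log2 fold change was -0.27 (SE 0.06, adjusted p = 0.00427). Leaving out MGT+shScd1 replicate 1 ended the call (-0.23, adjusted p = 0.0978), as did log2(FPKM + 1) and log2(FPKM + 0.1) (adjusted p = 0.142 and 0.141). Transcript levels say nothing of the phosphorylated protein, which was not measured. The annotated span of Stat3 in GENCODE M21 overlaps Stat5a on the other strand. Stat5a had 266 to 337 counts per library, against 3384 to 5151 for Stat3. Socs3 (ENSMUSG00000053113, minus strand of chromosome 11, 117966079 to 117970047), the feedback inhibitor and itself a known STAT3 target, had 9.78 and 10.2 CPM in MGT+shScd1 cells, against 21.0 and 20.9 CPM in MGT+shNT cells. The SD between replicates was 0.280 CPM in MGT+shScd1 cells and 0.101 CPM in MGT+shNT cells, and the log2 fold change of -1.07 (SE 0.12, adjusted p = 1.67e-05) ranged from -1.10 to -1.04 with each library left out in turn.

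Ratios between members within a library do not depend on how libraries were scaled, and they show which members moved together. Osmr per Il6st was 0.313 and 0.284 in MGT+shScd1 libraries and 0.284 and 0.322 in MGT+shNT libraries, in FPKM per FPKM. Lifr per Il6st was 0.0373 and 0.0349 in MGT+shScd1 libraries and 0.0323 and 0.0386 in MGT+shNT libraries. Both ratios overlapped between the groups. So did Il6ra per Il6st, with 0.0252 and 0.0203 in MGT+shScd1 libraries and 0.0287 and 0.0196 in MGT+shNT libraries. Il11ra1 per Il6st did not overlap, with 0.345 and 0.308 in MGT+shScd1 libraries and 0.197 and 0.240 in MGT+shNT libraries. Cytokine per receptor was higher with the Scd1 hairpin: Lif per Lifr was 17.2 and 18.4 in MGT+shScd1 libraries, against 6.84 and 9.69 in MGT+shNT libraries. Il6 per Il6ra was 14.2 and 15.2 in MGT+shScd1 libraries, against 5.21 and 9.79 in MGT+shNT libraries. Socs3 per Stat3 was 0.163 and 0.162 in MGT+shScd1 libraries, against 0.277 and 0.290 in MGT+shNT libraries. Socs3 per Il6st differed less, with 0.124 and 0.121 in MGT+shScd1 libraries and 0.136 and 0.150 in MGT+shNT libraries. These ratios are a description with 2 libraries a group and carry no test.

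**Figure D3:**
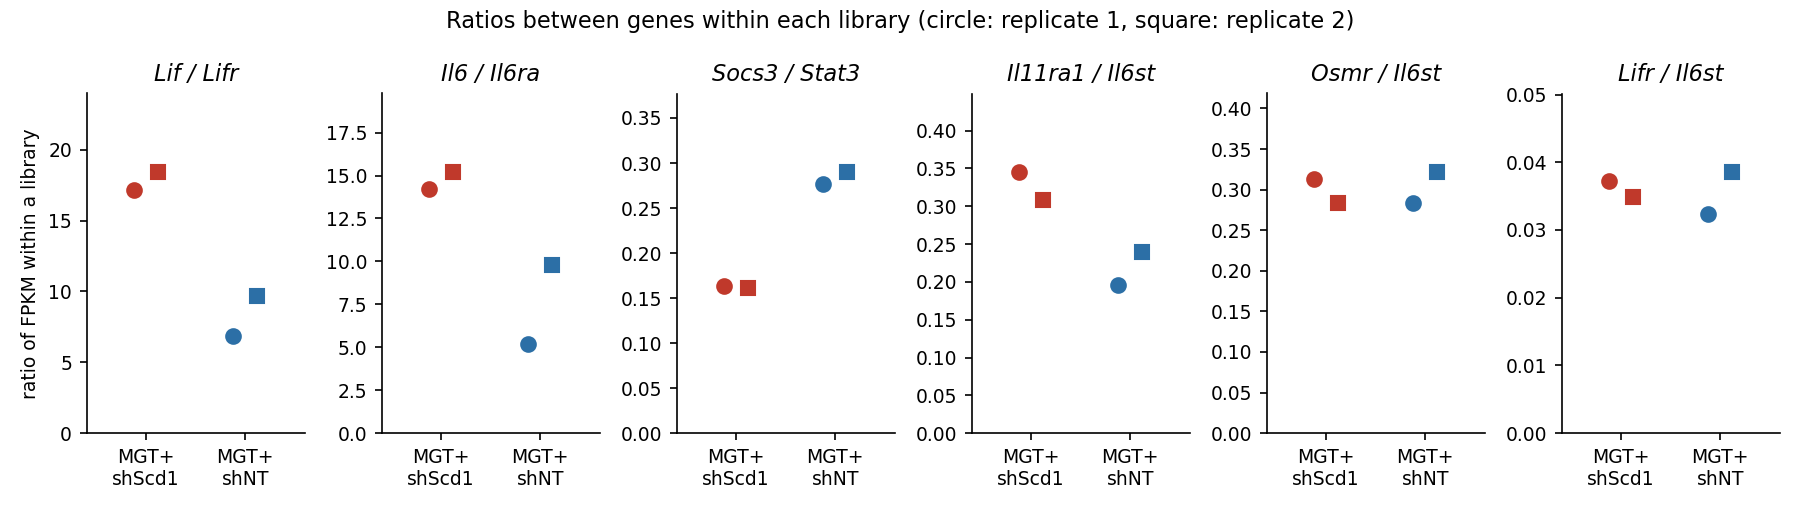
Ratio of the deposited FPKM of a pair of genes within each library (vertical axes from 0, no unit); circles are replicate 1 and squares replicate 2. Lif / Lifr, Il6 / Il6ra and Il11ra1 / Il6st are higher in both MGT+shScd1 libraries, Socs3 / Stat3 is lower, and Osmr / Il6st and Lifr / Il6st overlap between the groups.

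The remaining cytokines and receptors of the family were few and mostly faint. Of 13 genes, 6 passed the filter on low counts, 2 rose, 0 fell and 4 were not called, where 13.1% of all genes tested rose. Cntfr, the alpha subunit for ciliary neurotrophic factor, had 4.71 and 4.88 CPM in MGT+shScd1 cells, against 1.75 and 1.89 CPM in MGT+shNT cells (log2 fold change 1.40, SE 0.25, adjusted p = 0.00101). Clcf1, a cytokine that acts through the Cntfr product, had 8.46 and 8.46 CPM in MGT+shScd1 cells, against 5.53 and 5.04 CPM in MGT+shNT cells (log2 fold change 0.67, SE 0.17, adjusted p = 0.00806). The Clcf1 call was lost without MGT+shScd1 replicate 1 or 2 (adjusted p = 0.0839 and 0.0774), which left 1 call in the list. Osm, the oncostatin M gene, which was not tested, had 2 and 3 counts in MGT+shScd1 libraries and 4 and 12 counts in MGT+shNT libraries.

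Most Janus kinase and other STAT genes fell with Stat3. Of 9 tested, 6 fell, 1 rose and 2 were not called (median log2 fold change -0.30). Among all genes tested, 16.3% fell and 13.1% rose. The interferon-pathway factor Stat2 had 137 and 125 CPM in MGT+shScd1 cells, against 261 and 172 CPM in MGT+shNT cells (log2 fold change -0.73, adjusted p = 0.00108, and -0.39 without MGT+shNT replicate 1). By DESeq2 (adjusted p = 0.0728) and on log2(FPKM + 1) (adjusted p = 0.0886) or log2(FPKM + 0.1) (adjusted p = 0.0853) Stat2 was not called. The kinase gene Tyk2 had 35.5 and 36.0 CPM in MGT+shScd1 cells, against 60.1 and 51.8 CPM in MGT+shNT cells (-0.65, adjusted p = 7.8e-05). Jak2 had 42.0 and 46.9 CPM in MGT+shScd1 cells, against 61.8 and 58.2 CPM in MGT+shNT cells (-0.44, adjusted p = 0.000981), and Stat6, the interleukin-4 factor, fell by 0.48 on the log2 scale (adjusted p = 9.96e-05). On log2(FPKM + 1) the Jak2 call was lost (adjusted p = 0.0511). Without MGT+shScd1 replicate 1 fewer genes of the list were called, as of all genes tested, and the median was -0.33.

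Other negative regulators were mixed. Of 15 tested, 5 fell, 1 rose and 9 were not called (median log2 fold change -0.12). The shares over all genes tested were 16.3% lower and 13.1% higher. Cish, a feedback inhibitor of STAT5 signalling, had 37.3 and 38.0 CPM in MGT+shScd1 cells, against 61.4 and 60.7 CPM in MGT+shNT cells (log2 fold change -0.70, SE 0.07, adjusted p = 1.07e-05). Socs2, an inhibitor of growth hormone signalling, fell by 0.39 (adjusted p = 0.000637), Socs5 by 0.33 (adjusted p = 0.00266) and Socs6 by 0.28 (adjusted p = 0.0295) on the log2 scale. On log2(FPKM + 1) Socs2 (adjusted p = 0.0529), Socs5 (adjusted p = 0.0976) and Socs6 (adjusted p = 0.315) were not called, nor were Socs5 (adjusted p = 0.0932) and Socs6 (adjusted p = 0.318) on log2(FPKM + 0.1). Socs6 was also not called with upper-quartile factors (adjusted p = 0.0712) or DESeq2 (adjusted p = 0.119). Calls on Socs5 (adjusted p = 0.0563) and Socs6 (adjusted p = 0.119) were lost without MGT+shScd1 replicate 1, and that on Socs6 also without MGT+shScd1 replicate 2 (adjusted p = 0.206) and MGT+shNT replicate 2 (adjusted p = 0.0995). The gene that rose, named after its values were seen, was Pias4 (0.26, adjusted p = 0.0382), which encodes an inhibitor of STAT proteins. That call was lost without MGT+shNT replicate 1 (adjusted p = 0.0899), MGT+shScd1 replicate 1 (adjusted p = 0.189) or MGT+shScd1 replicate 2 (adjusted p = 0.176), by DESeq2 (adjusted p = 0.165) and with no filter on low counts (adjusted p = 0.053). Fewer genes of the list were called without MGT+shScd1 replicate 1 or 2, as of all genes tested, with medians of -0.17 and -0.11. Socs1, the closest relative of Socs3 in function, chosen after its values were seen, had 3.95 and 3.74 CPM in MGT+shScd1 cells, against 4.80 and 4.90 CPM in MGT+shNT cells, and was not called (adjusted p = 0.265).

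Among genes known as STAT3 targets in various cells, Socs3 set aside, falls outnumbered rises. Of 24 genes, 20 were tested, 12 fell, 3 rose and 5 were not called (median log2 fold change -0.35). Falls made up 16.3% of all genes tested and rises 13.1%. The cyclin gene Ccnd1 had 56.2 and 58.0 CPM in MGT+shScd1 cells, against 133 and 125 CPM in MGT+shNT cells (log2 fold change -1.17, SE 0.07, adjusted p = 4.21e-08). Il4ra, the interleukin-4 receptor subunit, had 36.6 and 35.2 CPM in MGT+shScd1 cells, against 66.8 and 58.8 CPM in MGT+shNT cells (-0.81, adjusted p = 8.36e-06). The acute-phase gene Saa3 had 2.43 and 3.17 CPM in MGT+shScd1 cells, against 8.53 and 4.48 CPM in MGT+shNT cells (-1.25, adjusted p = 0.0053). The call on Saa3 was lost without MGT+shNT replicate 1 (-0.67, adjusted p = 0.0774) or MGT+shScd1 replicate 1 (adjusted p = 0.113), and on log2(FPKM + 1) (adjusted p = 0.0899) or log2(FPKM + 0.1) (adjusted p = 0.0801). The transcription factor gene Batf had 5 and 8 counts in MGT+shScd1 libraries and 21 and 15 counts in MGT+shNT libraries (-1.61, adjusted p = 0.0319), a call lost without MGT+shScd1 replicate 1 (adjusted p = 0.264) or 2 (adjusted p = 0.115) and by DESeq2 (adjusted p = 0.17). The 3 that rose, named after their values were seen, were Myc (0.60), Nfil3 (0.59) and the vascular growth factor gene Vegfa (0.28). With MGT+shScd1 replicate 1 left out, fewer of the 20 were called, as of all genes tested, and the median was -0.32. These genes answer to many other signals too.

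Genes that induce Il6 or control its mRNA, and the proteases that shed its receptor, also went both ways. Of 17 genes, 15 were tested, 6 fell, 2 rose and 7 were not called (median log2 fold change -0.17). Over all genes tested, 16.3% fell and 13.1% rose. Il1rn, the interleukin-1 receptor antagonist, had 0.810 and 0.727 CPM in MGT+shScd1 cells, against 3.93 and 2.80 CPM in MGT+shNT cells (log2 fold change -2.13, SE 0.35, adjusted p = 0.000475). Il1r1, the signalling receptor for interleukin-1, had 71.2 and 83.8 CPM in MGT+shScd1 cells, against 108 and 103 CPM in MGT+shNT cells (-0.45, adjusted p = 0.000714), but was not called on log2(FPKM + 1) (adjusted p = 0.0521) or log2(FPKM + 0.1) (adjusted p = 0.0502). Tnfaip3, an inhibitor of NF-kappaB signalling, had 21.0 and 21.0 CPM in MGT+shScd1 cells, against 14.3 and 13.0 CPM in MGT+shNT cells (0.62, adjusted p = 0.00103). Nfkbiz, a co-factor gene for Il6 induction named after its values were seen, was the other that rose (0.31, adjusted p = 0.00433), a call lost without MGT+shScd1 replicate 2 (adjusted p = 0.0816). The protease genes Adam10 and Adam17, likewise chosen, fell by 0.34 (adjusted p = 0.000642) and 0.44 (adjusted p = 0.0003) on the log2 scale. Zfp36, which destabilises cytokine mRNAs, had 61.8 and 62.0 CPM in MGT+shScd1 cells, against 66.6 and 115 CPM in MGT+shNT cells (-0.53, adjusted p = 0.0296). The Zfp36 value rested on MGT+shNT replicate 2: leaving it out gave -0.11 (adjusted p = 0.353), leaving out MGT+shNT replicate 1 gave -0.88, and the call was also lost without MGT+shScd1 replicate 1 (adjusted p = 0.201) or 2 (adjusted p = 0.187), by DESeq2 (adjusted p = 0.36), by limma-voom (adjusted p = 0.0554) and on log2(FPKM + 1) (adjusted p = 0.234) or log2(FPKM + 0.1) (adjusted p = 0.229). Without MGT+shScd1 replicate 2 fewer genes of the list were called, as of all genes tested, and the median was -0.21. The cytokine genes Il1a and Il1b were too low to test, and Tnf was not called, with 0.557 and 0.571 CPM in MGT+shScd1 cells, against 0.970 and 0.630 CPM in MGT+shNT cells (adjusted p = 0.463). Its log2 fold change of -0.53 was -0.15 without MGT+shNT replicate 1.

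**Figure D4:**
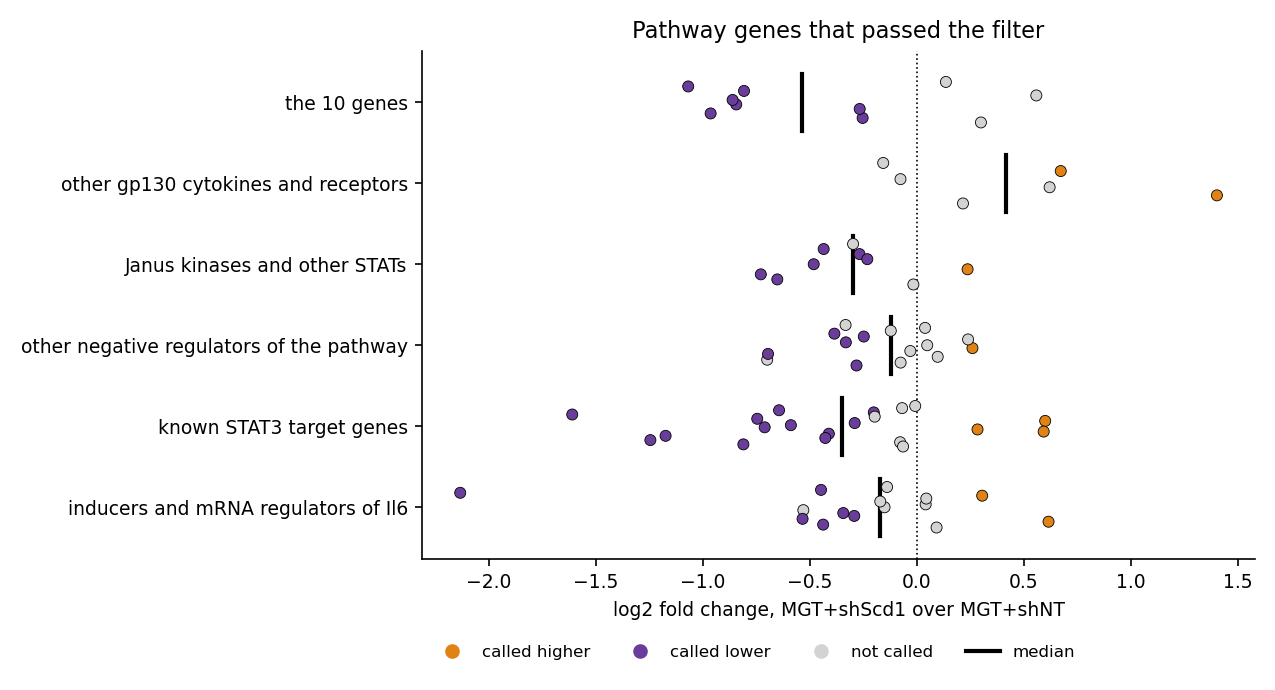
Log2 fold change of MGT+shScd1 over MGT+shNT for each gene that passed the filter on low counts, by list; orange is called higher, purple called lower, grey not called, and the black bar is the median (vertical spread of points has no meaning). The medians are -0.54 for the 10 genes, 0.42 for other gp130 cytokines and receptors, -0.30 for Janus kinases and other STATs, -0.12 for other negative regulators, -0.35 for STAT3 target genes and -0.17 for inducers and regulators of Il6.

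Markers of the other cell types were read as lists beside these results. Of 10 cardiomyocyte markers 5 rose and 2 fell, and of 8 endothelial markers 0 rose and 2 fell. Among 7 epicardial and mesothelial markers 2 rose and 3 fell. For scale, 13.1% of all genes tested rose and 16.3% fell. Without MGT+shScd1 replicate 1 or 2 fewer genes of the endothelial and epicardial lists were called, as of all genes tested. The endothelial median log2 fold change was -0.20. It was 0.13 without MGT+shNT replicate 1 and -0.69 without MGT+shNT replicate 2. For the epicardial list the median was -0.29, and -0.20 and -0.32 in those fits. Of 8 markers of T cells, B cells and neutrophils 1 passed the filter, 3 were at 0 in every library, and their summed level was at most 1.56 CPM in any library. Of the 11 fibroblast markers 8 fell, 1 rose (Postn) and 2 were not called, and their part in the receptor differences was not tested.

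By closeness of log2 CPM over the 4 libraries, each centred on its own mean, the 5 genes most like Socs3 were Sec23b, Col1a2, M6pr, Hsd17b11 and Wasf2, with root mean square differences from 0.0128 to 0.0267. The 5 most like Il6, which hardly varied, were Myl12a, Gm10925, Cep135, Gm4221 and Cdc123 (0.0091 to 0.0133). With 4 libraries such likeness is a description of these samples only.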

How the data were processed

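Per the file headers, the authors deposited 2 values for each gene in each library, a raw read count (whole and unscaled) and an FPKM. These FPKM equalled those computed from count, exonic length and library total for 100.0% of values within 0.005. Per the submitters' processing notes, Trimmomatic 0.36, Subread 1.5.1, featureCounts and SAMtools were used with build mm10. How reads were aligned, the annotation release and the strand setting were not given in the sources used here; overlapping genes are therefore uncertain. The deposited coordinates differ from GENCODE M21 (GRCm38) and were not used. Counts kept by filterByExpr (minimum count 10, minimum total 15) were tested with edgeR 4.0.16 in R 4.3.3 (TMM factors 1.03 and 1.03 in MGT+shScd1, 0.989 and 0.946 in MGT+shNT, quasi-likelihood test with group as the single term, two-sided, Benjamini-Hochberg adjustment over all genes), after the test had been checked on simulated data. Each log2 fold change sets MGT+shScd1 over MGT+shNT, and 95% intervals come from the fit's standard error. Between replicates, chi-square divided by its degrees of freedom was 2.82 for MGT+shScd1 and 43.6 for MGT+shNT. Both exceeded sampling noise, so all 4 libraries were kept. The simulated data gave both groups the same spread, so that check did not cover this difference. The members and lists were chosen with earlier results of these data known. All members are named, and from each pathway list up to 4 called genes with the largest change and no overlap between groups. Alternatives used DESeq2 1.42.0 and limma 3.58.1. A few genes of the lists are not reported here by name.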

Additional observations from a re-analysis of the deposited data

How the results depend on the processing

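Calls over all genes, the members, the pathway lists, Scd1 and the list genes named with a call or an adjusted p were recomputed under 13 alternatives, except that Batf and Tnf did not pass the filter at a mean of 1 CPM. Marker lists were recomputed only with 1 library left out, and FPKM levels, ratios, motif matches and likeness under none. Il6st, Osmr, Lifr and Socs3 were called lower in all 13, Il6 and Il11 were called in none, and no log2 fold change of a member changed sign. Of all 16234 genes tested, 2641 were called lower and 2122 higher in the main fit. On log2(FPKM + 1) and log2(FPKM + 0.1), 1249 and 1266 were called lower and 2256 and 2260 higher. With these FPKM values 4 and 4 members were called, all lower. There Il6ra (-0.39 and -0.74, adjusted p = 0.111 and 0.111), Il11ra1 (-0.14 and -0.16) and Stat3 (-0.16 and -0.17) were not called, and calls numbered 2 and 3 among Janus kinases and other STATs, 2 and 3 among negative regulators, 8 and 8 among STAT3 targets and 5 and 5 among inducers of Il6. Il11ra1 was also not called with upper-quartile factors (-0.20) or the DESeq2 Wald test (-0.25). Lif was called higher with no filter on low counts (0.31, adjusted p = 0.000729), and also in the fit without MGT+shNT replicate 2 (0.62). With 1 library left out, Il6 ranged from 0.034 to 0.24, Il11 from 0.20 to 1.19, Lif from 0.019 to 0.62, Il6ra from -1.25 to -0.54, Il11ra1 from -0.32 to -0.19 and Stat3 from -0.31 to -0.22. Calls then ranged from 2272 to 5395 over all genes, 5 to 7 over the members, 1 to 2 over other gp130 genes, 4 to 8 over Janus kinases and other STATs, 2 to 6 over negative regulators, 8 to 16 over STAT3 targets and 5 to 7 over inducers of Il6. In these fits a lone library is assumed to vary like the other group.

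Deviations of same-numbered libraries were nearly uncorrelated across genes (correlation -0.00787). That value rests on a single difference within each group, and the MGT+shNT libraries differed far more, so it cannot exclude pairing by replicate number. With the replicate number as a block, Lif was called (0.31, adjusted p = 0.000913) and 4990 genes were called, against 4763 without it. The block, the fit with no filter on low counts and the fits without an MGT+shNT library had far larger prior degrees of freedom (207 or infinite, against 10.9), so their p-values rest almost wholly on the shared estimate of spread. Depth limits Il11 most, at 8 to 29 counts per library.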
